A study of Homo sapiens with 12 samples.

Results

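The comparison set decitabine (DAC) alone against all-trans retinoic acid (ATRA) alone in U937 cells, head to head, and included the genes that the single agents moved in opposite directions. Its members were the 3 libraries that carry only the DAC label and the 3 that carry only the ATRA label in the deposited U937 expression matrix, 6 of the 12 libraries of the series. U937 is an established human myelomonocytic line, labelled here as an acute myeloid leukemia line. The study treated it with either drug or with both in order to follow their separate and joined effects on transcription. The DAC cells received 200 nM DAC on 3 days with a change of medium each day and were collected at 72 h. The ATRA cells received 1 µM ATRA and are labelled 72 h as well, while the study's methods place ATRA together with the last DAC dose. The sources thus differ on how long ATRA was present, and the exposures to the 2 agents need not have been equally long, so the data compare 2 regimens at 1 dose each. Untreated cells, labelled 96 h, and cells given both agents, labelled 72 h, had 3 libraries each. In every change against untreated below, treatment cannot be told apart from this difference in labelled time. By the labels all groups shared medium with 20% fetal calf serum and 5 ng/ml GM-CSF, whereas the supplementary methods of the study give less serum and name no GM-CSF. RNA was depleted of ribosomal RNA and turned into strand-specific paired-end libraries. The design text deposited with the series calls the replicates technical, so every p-value below measures only the spread between libraries and not that between independent cultures.

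DAC is a deoxycytidine analogue that is built into replicating DNA, where it traps DNA methyltransferases, so that daughter strands lose cytosine methylation. Genes with methylated promoters, among them germline genes and some tumor suppressors, are known to become active after such treatment. ATRA is the ligand of the retinoic acid receptors, transcription factors that bind DNA together with retinoid X receptors, release corepressors on ligand binding and drive myeloid differentiation.

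The DAC libraries held 9456661, 10157241 and 9583119 reads and the ATRA libraries 9667562, 10523163 and 10470624 reads assigned to transcripts, within a range of 8042435 to 10683593 over the 12 libraries. Values are reads per annotated transcript divided by the size factor of the library (normalized reads), so they can be compared between libraries for 1 transcript but not between genes of different length. The libraries are called by their number in the matrix, 1 to 3 for untreated, 4 to 6 for DAC, 7 to 9 for ATRA and 10 to 12 for both agents, and values are always given in that order. The first principal component of the 12 libraries took 76.6% of the variance and the next 10.3%. More transcripts had at least 1 read with DAC (mean 44182) than with ATRA (mean 41024), a difference with p = 0.1 in a two-sided exact permutation test, the smallest p that 3 against 3 libraries allow. The share of reads on mitochondrial genes averaged 38.8% with DAC and 40.2% with ATRA (exact permutation p = 0.2). Protein-coding transcripts took 86.6% of reads with DAC and 84.9% with ATRA (exact permutation p = 0.1).

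Markers of the labelled cell type were present in both groups. Of 8 myelomonocytic markers 6 had reads, most of them on MPO, and PTPRC and CSF2RA were at 0 in every library. Their summed level was 39583, 25985 and 33799 normalized reads with DAC and 41853, 44043 and 32036 with ATRA, so that the groups overlapped. Of 6 T cell markers all had reads, and their sum was 1020, 1251 and 1276 with DAC against 11.6, 5.46 and 6.66 with ATRA. CD5 and CD2 made up nearly all of the sum with DAC, CD5 having the most reads, and CD2 had the most with ATRA, whereas the defining markers CD3D, CD3E, CD3G and TRAC each stayed between 0 and 7.79 in all DAC libraries and between 0 and 2.11 in all ATRA libraries. The sum of 5 B cell markers was 880, 942 and 896 with DAC and 722, 720 and 505 with ATRA, with most reads on CD79A with DAC and on CD79A or PAX5 with ATRA, and with MS4A1 between 0 and 2.92. Of 8 fibroblast or epithelial markers 5 had reads, most of them on COL1A1, with sums of 253, 236 and 300 with DAC and 48.6, 54.6 and 49.1 with ATRA. COL3A1, DCN and CDH1 were at 0. Among erythroid markers, EPB42 had reads, at most 3.98 with DAC and 3.17 with ATRA, and HBB, HBA1, HBA2 and ALAS2 were at 0. HBB, HBA1 and HBA2 have only 3, 18 and 14 bases that no other transcript covers, and the leukocyte gene PTPRC was at 0 too, so a value of 0 for such transcripts need not mean that the gene was silent. The part of these marker differences in the results below was not tested.

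DAC left a far larger set of transcripts above ATRA than below it. Of 9016 protein-coding transcripts tested, 2288 (25.4%) were higher with DAC and 675 (7.49%) were higher with ATRA at an adjusted p below 0.01 (limma, Benjamini-Hochberg), 2963 (32.9%) in all. Differences of at least 2-fold numbered 1512 higher with DAC and 266 higher with ATRA, and those of at least 16-fold numbered 394 and 6. Counting silent transcripts at their lower bound, these numbers were 1505, 266, 371 and 6. In 224 of the transcripts higher with DAC, no ATRA library had a read, whereas 2 of those higher with ATRA had no read in any DAC library. Without regard to the test, every DAC library lay above every ATRA library in 3117 transcripts (34.6%) and below in 1228 (13.6%). The balance of directions depended on scaling: with the deposited size factors 77.2% of called transcripts were higher with DAC and the median log2 fold change of all transcripts was 0.17, while TMM scaling in edgeR gave 60.3% and 0.00, with 1949 called higher with DAC and 1281 higher with ATRA. Each gene list below is therefore given beside the same values for all 7622 symbols, of which 2138 (28.1%) were higher with DAC and 572 (7.5%) higher with ATRA, with a median of 0.19 on the log2 scale. Under TMM scaling that median was 0.02, and the median of no list changed sign under any scaling tried.

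**Figure D1:**
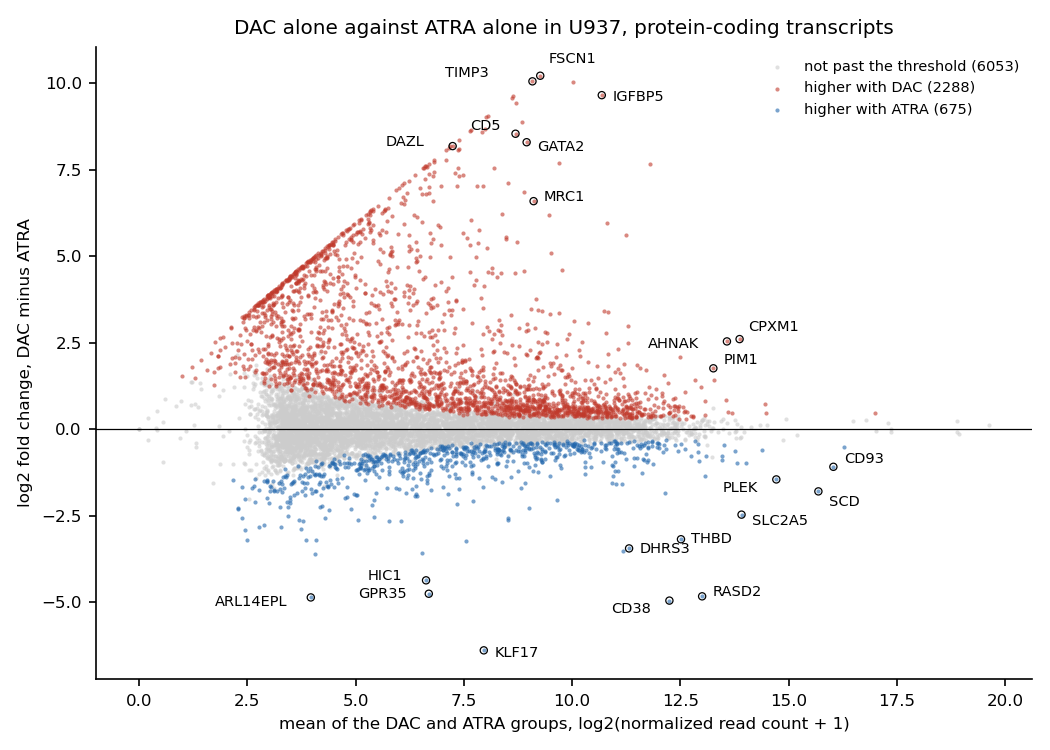
Mean level of each of 9016 protein-coding transcripts over the DAC and ATRA groups, as log2(normalized read count + 1), against the log2 fold change DAC minus ATRA; points are coloured by whether they passed the threshold. The 2288 transcripts higher with DAC reach a log2 fold change of 10.21 (FSCN1) along the edge where ATRA has no read, and the 675 higher with ATRA reach -6.39 (KLF17).

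Against the same 3 untreated libraries, DAC was called higher for 2763 transcripts (30.6%) and lower for 784 (8.7%), 39.3% in all, and ATRA higher for 583 (6.47%) and lower for 241 (2.67%), 9.14% in all. Counted by symbol, the shares were 33.4% and 8.83% with DAC and 7.12% and 3.02% with ATRA. The lower counts depended on scaling: edgeR with TMM gave 2294 higher and 1604 lower with DAC and 599 and 389 with ATRA, and DESeq2 2273 and 1397 and 615 and 383. Without untreated library 1, 2 or 3 the 241 lower with ATRA became 157, 137 and 150. The plot of level against fold change shows the asymmetry under the deposited size factors, with a dense edge of DAC-only transcripts rising to the upper right.

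The transcripts with the widest gap included a matrix protease inhibitor and an actin-bundling protein. TIMP3, which inhibits matrix metalloproteinases and is carried at chr22:32801705-32863041 on the plus strand (hg38), held 788, 1345 and 1116 normalized reads with DAC and 0 in every ATRA and untreated library. It was thus silent outside the DAC-treated cells, at least 1183-fold higher with DAC than with ATRA against a floor of 3 reads over the ATRA group (log2 fold change 10.05, SE 0.24, adjusted p = 1.35e-17). FSCN1, which codes for the actin-bundling protein fascin, held 1154, 861 and 1666 with DAC and 0 in each ATRA library, at least 1328-fold. IGFBP5, a secreted binding protein for insulin-like growth factors, held 2153, 4373 and 3329.6 with DAC against 6.34, 0.91 and 3.33 with ATRA, and 9685, 12458 and 11670.0 when both agents were given. PTRF, the caveolar coat protein cavin, held 783, 962 and 1016 with DAC and 0, 1.82 and 1.66 with ATRA. For these 4 genes the groups lay far apart and no library of either group came near the other. Where a group had at most 3 reads, the fitted log2 fold change depends on the pseudocount of 1 and is no bound. The remaining transcripts of the 10 largest fold changes were TUBA3D, TUBA3E, PRSS2, RHOXF2, U82695.5 and RP13-147D17.3. The first 5 of these share sequence with near-identical copies, so which copy was transcribed is uncertain.

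The promoters of TIMP3 and of the germline gene DAZL are shown because both genes were silent in untreated and ATRA libraries and not with DAC, and because cytosine methylation falls on CpG pairs. Each is the 250 bases before the RefSeq gene start on GRCh38.p14, read along the gene's own strand, with every CpG in capitals: TIMP3 at chr22:32801455-32801704 on the plus strand with 26 CpG, and DAZL at chr3:16605424-16605673 on the minus strand with 28.
TIMP3: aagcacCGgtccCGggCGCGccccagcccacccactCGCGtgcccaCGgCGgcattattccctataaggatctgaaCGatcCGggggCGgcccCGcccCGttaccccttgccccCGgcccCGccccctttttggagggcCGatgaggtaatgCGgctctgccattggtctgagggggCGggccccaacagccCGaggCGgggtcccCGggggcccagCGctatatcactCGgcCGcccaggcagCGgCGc
DAZL: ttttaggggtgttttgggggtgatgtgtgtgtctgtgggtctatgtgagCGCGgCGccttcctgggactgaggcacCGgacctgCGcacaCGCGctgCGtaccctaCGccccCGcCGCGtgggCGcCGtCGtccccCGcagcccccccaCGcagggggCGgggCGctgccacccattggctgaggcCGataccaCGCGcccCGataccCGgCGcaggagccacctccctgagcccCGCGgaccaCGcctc
Over the 300 bases that include the first 50 transcribed, TIMP3 had 31 CpG and DAZL 33, against a median of 27 over the 6169 tested symbols with a promoter entry. Methylation itself was not analysed here.

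Cancer/testis and germline genes, normally restricted to germ cells, were the list with the highest median among tested members. Of 63 members 20 were tested, and 19 of these were higher with DAC and none with ATRA (at most 1 when a library was left out). Their median log2 fold change was 4.53, and setting the 12 members with at most 3 reads in the ATRA group to their bound left it unchanged. Those 12 could pass the filter on low values only through libraries other than the ATRA ones. The count and the median are thus in part set by the filter and do not describe the untested members. The median depended on the tool, at 7.02 in edgeR with TMM, 7.16 in edgeR with the deposited size factors and 6.57 in DESeq2. DAZL, an RNA-binding protein of germ cells, held 190.2, 378 and 334 normalized reads with DAC and 0 in all ATRA and untreated libraries. All DAC libraries were high and all ATRA libraries silent, at least 329-fold (log2 fold change 8.18, SE 0.29, adjusted p = 5.04e-15). CTAG2, at the low end of detection, held 7.57, 10.7 and 17.9 with DAC and 0 with ATRA, at least 13.2-fold. LIN28B, an RNA-binding protein that blocks let-7 processing, had the smallest called difference, 475, 506 and 394 with DAC against 380.1, 319.5 and 297 with ATRA (log2 fold change 0.46, SE 0.13, adjusted p = 0.00602). Its groups did not overlap, but its call was lost under TMM scaling, with DESeq2 and without library 4, 5, 8 or 9, with adjusted p from 0.0123 to 0.0363 over the settings that lost it. The next 4 genes were chosen after their values were seen. MAGEB2 held 639.9, 868 and 832 with DAC and 50.7, 36.4 and 19.1 with ATRA (22.0-fold), and MAGEC2 186, 203 and 222 against 4.22, 4.55 and 8.32 (35.7-fold). MAGEA1 held 37.8, 56.5 and 66.7 with DAC and 0 with ATRA, and DDX53, a DEAD-box RNA helicase, 152, 208 and 171 against 0, 1.82 and 0. In each of the 4 every DAC library exceeded every ATRA library by a wide margin. Reads of MAGE family members can fall on more than 1 copy, which the counting may have split.

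ERV3-1, an envelope gene of retroviral origin, and its neighbour ZNF117 were higher with DAC by less than 2-fold. ERV3-1 held 3578, 4230.0 and 4069 with DAC and 2623, 2449.6 and 2828 with ATRA (log2 fold change 0.59, SE 0.09, adjusted p = 2.86e-05). ZNF117 held 568, 706 and 633 and 431, 334 and 434 (log2 fold change 0.67, SE 0.12, adjusted p = 0.000114). Untreated means were 975 and 153, so either agent alone left both genes above the untreated cells, with DAC on top and no overlap between groups.

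GATA2, a zinc finger factor of hematopoietic progenitors and mast cells, had the widest gap of its list. It held 3.68, 4.55 and 6.46 normalized reads in untreated cells, 838, 1011 and 1106 with DAC, 2.11, 1.82 and 2.50 with ATRA and 361, 422 and 361 with both. The DAC libraries were all high and the ATRA libraries all below the untreated ones. The fall with ATRA rests on few reads, and its call was lost in edgeR, in DESeq2 and without library 2, 3, 7 or 8 (adjusted p up to 0.255). The direct difference was log2 fold change 8.29, SE 0.20, adjusted p = 2.07e-17. Only 28 of the 3383 bases of this transcript belong to no other annotated transcript. What share of its level came from those bases was not tested, and transcripts with 0 such bases, IL16 among them, held reads too. The GATA, erythroid and mast cell list has 33 members, of which 9 were tested. Of these 9, 5 were higher with DAC and none with ATRA, with a median of 1.57, while edgeR, DESeq2 and the other scalings each called 1 higher with ATRA. In 3 of the 9 the ATRA group had at most 3 reads, so they passed the filter on low values only through other libraries. The share and the median are thus in part set by the filter. CPA3, a mast cell carboxypeptidase, held 19.5, 41.9 and 24.9 with DAC and 0 with ATRA and in untreated cells, at least 31.5-fold. ZFPM1, a GATA cofactor, held 403, 541 and 646 against 199.6, 329.5 and 173 (log2 fold change 1.21, SE 0.22, adjusted p = 0.000299). GATA1, the erythroid and mast cell factor, held 10.8, 6.82 and 20.9 with DAC and 0 with ATRA, and TAL1, its partner in erythroid complexes, 27.0, 17.5 and 22.9 and 0, 0.91 and 0; TAL1 was chosen after its values were seen. All 4 were thus higher with DAC.

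The promoters of GATA2 and CPA3 are printed because these genes rose together with DAC. GATA2 at chr3:128493202-128493451 on the minus strand has its 24 CpG in capitals. CPA3 at chr3:148865046-148865295 on the plus strand has in capitals its 2 matches to AGATAA, the letters of a GATA site, searched on both strands.
GATA2: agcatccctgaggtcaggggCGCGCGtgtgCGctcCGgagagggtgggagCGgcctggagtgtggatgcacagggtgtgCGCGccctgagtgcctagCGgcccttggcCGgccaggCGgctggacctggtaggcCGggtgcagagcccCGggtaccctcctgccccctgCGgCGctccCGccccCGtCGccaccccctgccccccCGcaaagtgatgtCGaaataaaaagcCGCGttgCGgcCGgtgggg
CPA3: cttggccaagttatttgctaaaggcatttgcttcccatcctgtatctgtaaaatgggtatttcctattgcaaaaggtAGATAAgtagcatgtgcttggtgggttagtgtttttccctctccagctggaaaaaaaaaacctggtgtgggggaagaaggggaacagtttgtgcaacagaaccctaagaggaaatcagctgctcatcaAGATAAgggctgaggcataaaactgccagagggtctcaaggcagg
AGATAA occurred in 307 of the 6169 promoter windows of 300 bases (4.98%), and no match overlapped that of another motif searched. CPA3 had 0 CpG in its window and GATA2 29. A match is a description of the letters and not evidence of binding.

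Genes higher with ATRA were fewer, and known retinoic acid targets were among them. Among 19 tested retinoic acid targets and genes of retinoid metabolism, 8 were higher with ATRA and 5 with DAC, with a median of -0.49 (-0.41 with silent genes at their bound). These shares were 42.1% and 26.3%, beside 7.5% and 28.1% over all symbols. Against untreated cells, 9 of the 19 were higher with ATRA and 9 with DAC, while 1 was lower with ATRA and 2 with DAC. CD38, a surface enzyme that makes cyclic ADP-ribose and is a direct target of the retinoic acid receptor, held 436, 543 and 508 in untreated cells, 365, 295 and 257 with DAC, 9766, 9317 and 9124 with ATRA and 7168, 7608 and 8075 with both. The ATRA libraries lay 30.7-fold above the DAC libraries, which themselves lay below every untreated library (log2 fold change -4.95, SE 0.12, adjusted p = 1.35e-17). DHRS3, which reduces retinal to retinol, held 517, 375 and 394 with DAC and 4809, 5252 and 3931 with ATRA, 10.9-fold more (log2 fold change -3.44, SE 0.12, adjusted p = 5.38e-15). HIC1, a zinc finger repressor, held 8.65, 6.82 and 8.96 and 213, 186 and 164, 23.0-fold more with ATRA (log2 fold change -4.37, SE 0.20, adjusted p = 3.33e-13). These 3 genes separated the groups without overlap. HIC1 was above its untreated mean of 2.14 with either agent, and highest with both, at 533, 623 and 596.

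The promoters of CD38 and DHRS3 are shown because both genes were higher with ATRA and carry very different numbers of CpG. CD38 at chr4:15778078-15778327 on the plus strand has 3 CpG, in capitals, and DHRS3 at chr1:12618211-12618460 on the minus strand has 26.
CD38: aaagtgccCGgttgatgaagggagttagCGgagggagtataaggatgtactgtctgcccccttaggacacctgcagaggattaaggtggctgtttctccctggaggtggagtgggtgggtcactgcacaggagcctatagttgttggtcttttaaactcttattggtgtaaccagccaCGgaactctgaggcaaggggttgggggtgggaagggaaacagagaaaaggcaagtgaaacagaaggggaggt
DHRS3: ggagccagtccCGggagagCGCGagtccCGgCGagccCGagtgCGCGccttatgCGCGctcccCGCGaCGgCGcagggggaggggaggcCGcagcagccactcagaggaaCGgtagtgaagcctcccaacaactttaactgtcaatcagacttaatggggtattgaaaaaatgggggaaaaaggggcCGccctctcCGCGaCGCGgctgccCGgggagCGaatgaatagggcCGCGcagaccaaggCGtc
The windows of 300 bases held 4 CpG for CD38 and 31 for DHRS3. Of the direct repeats that retinoic acid receptors can bind, DR5 and DR2 each occurred in 9 of 6169 windows (0.146%) and DR1 in 21 (0.34%).

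Some members of the retinoid list were higher with DAC. ALDH1A1, which oxidizes retinal to retinoic acid, held 174, 168 and 149 with DAC and 24.3, 31.9 and 18.3 with ATRA (log2 fold change 2.70, SE 0.20, adjusted p = 5.67e-10). NR2F1, an orphan nuclear receptor, held 20.5, 37.0 and 38.8 and 10.6, 11.8 and 8.32 (log2 fold change 1.52, SE 0.34, adjusted p = 0.00098). In both genes every DAC library was above every ATRA library. CYP26A1, the enzyme that degrades retinoic acid, held 0, 1.95 and 0 with DAC and 6.34, 4.55 and 0.832 with ATRA, but 516, 604 and 437 with both agents. Its difference between the single agents did not pass the threshold (adjusted p = 0.0162), with overlap between the groups. It passed without library 5, without library 9 and without the filter on low values, and the lowest adjusted p over the settings that called it was 0.00105. RARRES3, a phospholipase induced by retinoids, and DHRS9, a retinol dehydrogenase, were chosen after their values were seen. RARRES3 held 2.16, 0.974 and 0.996 with DAC and 15.8, 10.9 and 21.6 with ATRA, and DHRS9 5.40, 6.82 and 3.98 and 26.4, 28.2 and 31.6. Both were higher with ATRA in every library (log2 fold changes -2.84 and -2.24). Of 5 tested retinoid receptors and corepressors, 2 were higher with DAC and none with ATRA, with a median of 0.67. RARA, the receptor itself, held 291, 298 and 339.6 with DAC and 211, 233 and 134 with ATRA (log2 fold change 0.72, SE 0.16, adjusted p = 0.00107). Of the 3041 bases of this RARA transcript, 0 belong to no other annotated transcript. NCOA2, a coactivator of nuclear receptors, held 518, 708 and 517 and 376, 357 and 304 (log2 fold change 0.74, SE 0.14, adjusted p = 0.000192).

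Other genes among the 10 with the most negative fold change belong to no list. KLF17, a zinc finger factor of early embryonic cells located at chr1:44118821-44135140 on the plus strand, held 6.49, 1.95 and 7.97 with DAC and 498, 555 and 419 with ATRA. Its ATRA libraries were 89.8-fold higher, and its DAC libraries were near the untreated mean of 2.75 (log2 fold change -6.39, SE 0.31, adjusted p = 2.75e-12). RASD2, a small GTPase also known as Rhes, held 598, 464 and 589 and 17311, 18398 and 11821 (28.8-fold). GPR35, a receptor coupled to G proteins, held 3.24, 5.85 and 11.95 and 233, 214 and 146 (28.2-fold), and the chemokine receptor gene CXCR5 10.8, 17.5 and 11.95 and 190.1, 182 and 138 (12.7-fold). IL31RA, a cytokine receptor, held 1.08, 2.92 and 0.996 and 34.8, 28.2 and 26.6, and ARL14EPL 0 in all DAC libraries against 41.2, 20.0 and 26.6, at least 28.2-fold. SLC2A5, the fructose transporter GLUT5, was represented by 2 transcripts. The one with fewer reads held 306, 439 and 374 with DAC and 3991, 4120.0 and 4614 with ATRA (11.4-fold) and the other 4659, 4913 and 4489.9 and 28361, 28040.0 and 21921 (5.57-fold). In all of these every ATRA library was above every DAC library.

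**Figure D2:**
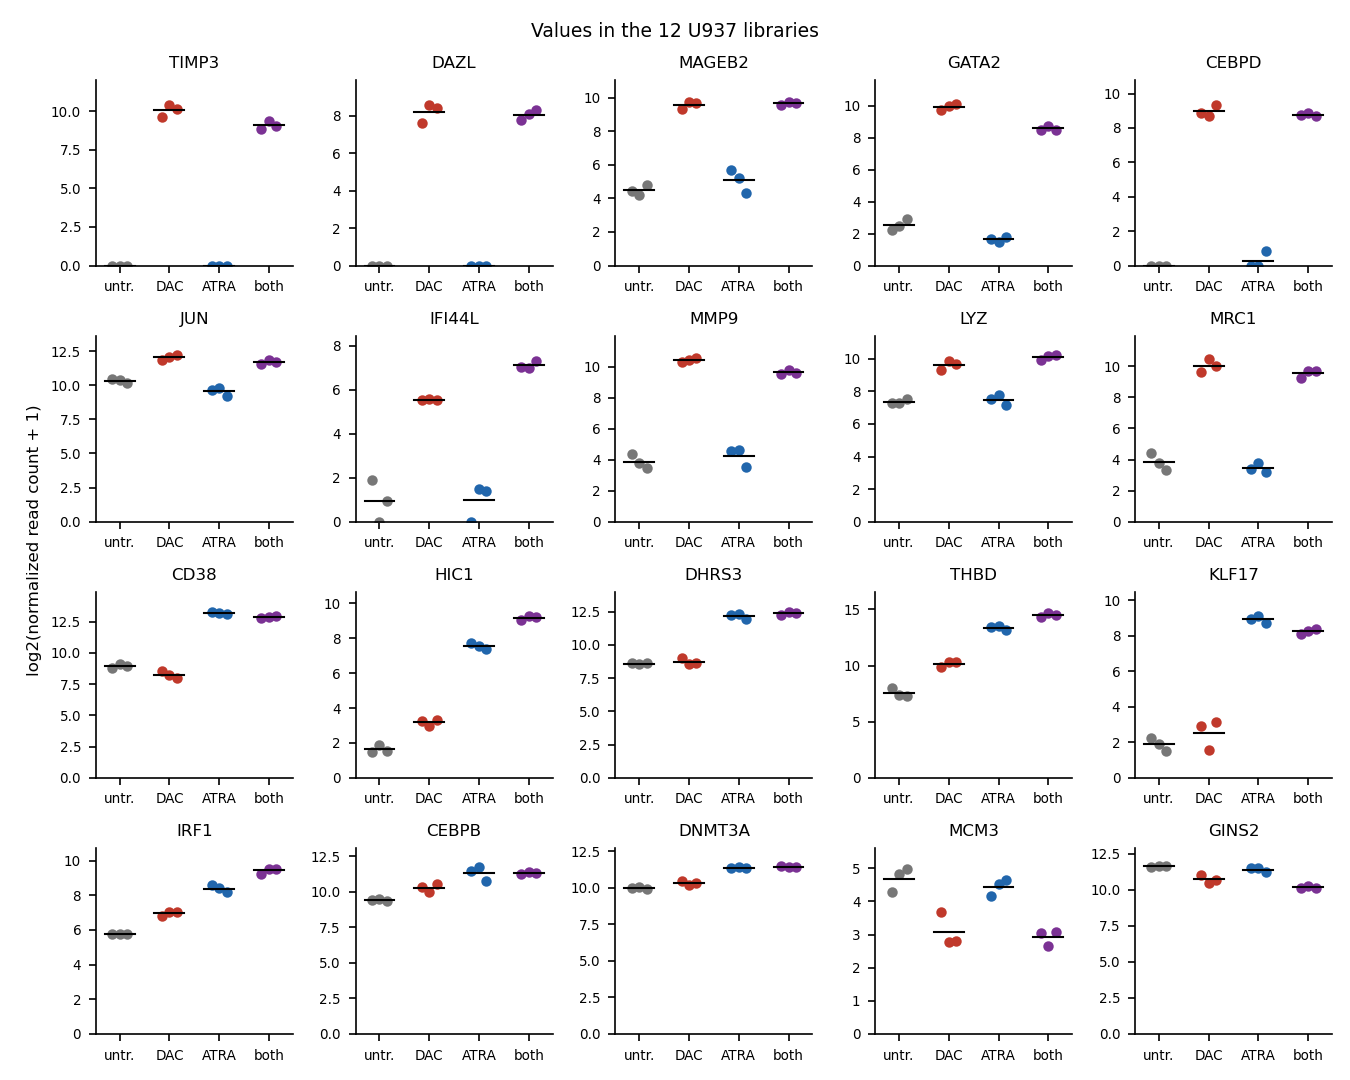
Values of 20 genes in the 12 libraries as log2(normalized read count + 1), with 3 points per group (untreated, DAC, ATRA, both agents) and a bar at the group mean. TIMP3 and DAZL have points above 0 only with DAC or both agents, CD38 and KLF17 are high with ATRA or both agents, and LYZ with ATRA stays between 142 and 214 normalized reads.

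The panels of values by library show the 2 main shapes, genes high wherever DAC was present and genes high wherever ATRA was present, and a smaller set, such as IRF1 and CEBPB, in which both agents lay above untreated cells to different degrees.

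The genes that the agents moved in opposite directions were counted against the untreated libraries, which both comparisons share, so the counts are not independent of each other. DAC raised and ATRA lowered 74 transcripts (0.821% of 9016), and DAC lowered and ATRA raised 9 (0.0998%). The smaller count depended on scaling, with 37 in edgeR with TMM, 36 in DESeq2 and 24 with library-size scaling in place of the 9, against 71, 71 and 97 in place of the 74. Without library 2 or 3 the 74 became 46 and 48, and without library 9 the 9 became 14. All 83 passed the threshold in the direct comparison too, which the choice of opposite called changes all but fixes. In the 74, the median log2 fold change was 1.38 for DAC against untreated and -1.05 for ATRA against untreated, and 2.63 between the agents, with a range of 0.78 to 8.29. Both changes reached 2-fold in 35 of them. Cells given both agents had values between those of the single agents in 55 of the 74, and in 8 of the 9. All 83 kept both signs under edgeR with TMM scaling and under DESeq2, but both calls held for 53 and 52 of the 74. Over the 18 other fits by transcript, where tested, 35 of the 74 and 6 of the 9 kept both calls; in the 74 it was the call with ATRA that was lost in 33 and the call with DAC in 13. Leaving out untreated library 1, 2 or 3 kept both calls in 52, 46 and 44 of the 74.

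Among those that DAC raised and ATRA lowered, 6 were taken for the size of the smaller change. PTX3, a pentraxin of innate defence, held 62.5, 66.5 and 61.9 in untreated cells, 476, 805 and 819.7 with DAC and 11.6, 13.7 and 17.5 with ATRA. The 3 groups were fully separated, with log2 fold changes of 3.40 for DAC and -2.10 for ATRA against untreated, and the direct difference was log2 fold change 5.50, SE 0.21, adjusted p = 1.56e-14. ZCCHC5, a gene of retrotransposon origin, held 19.3, 8.19 and 10.2, 87.6, 146 and 91.6 and 2.11, 0.91 and 2.50 in the same order of groups. MMP1, the interstitial collagenase, held 2.76, 6.37 and 3.69, 20.5, 49.7 and 33.9 and 0, 1.82 and 0, and CDX2, a homeobox factor of the intestine, 3.68, 2.73 and 4.62, 73.5, 68.2 and 62.7 and 0, 0 and 1.66. These 2 had only 2 reads each over the ATRA group, which gave DAC over ATRA ratios of 57.1 (95% counting interval 15.4 to 478) and 110.4 (95% counting interval 30.2 to 918). NXT2, an mRNA export factor, held 5.51, 7.28 and 5.54, 218, 184 and 251 and 3.17, 0 and 1.66. AC133680.1, a transcript assigned to RARB by GENCODE, held 3.68, 5.46 and 3.69, 19.5, 24.4 and 22.9 and 0 in each ATRA library. In every one of the 6 the untreated libraries lay between those of the 2 agents. PTX3 and ZCCHC5 kept both calls in all 18 other fits. AC133680.1 and MMP1 lost the call with DAC at a pseudocount of 0.1 (adjusted p = 0.0165 and 0.0115). The fall with ATRA lost its call in edgeR and DESeq2 for MMP1, CDX2 and NXT2, and also without library 2, 3, 7 or 9 for MMP1, 3, 7 or 8 for CDX2 and 1, 2 or 3 for NXT2 (adjusted p up to 0.107 over the 3).

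Further genes of this class were chosen after their values were seen. CD34, the surface antigen of hematopoietic progenitors, held 5.51, 1.82 and 4.62 in untreated cells, 319, 337 and 328 with DAC and 1.06, 0 and 1.66 with ATRA. CSF1, the macrophage growth factor, held 11.9, 8.19 and 6.46, 124, 93.5 and 101 and 1.06, 5.46 and 1.66, and JUN, a subunit of AP-1, 1372, 1324 and 1147, 3638, 4303 and 4742 and 784, 889 and 593. All 3 followed the same order, DAC above untreated and ATRA below it, and the groups did not overlap in any of them. NOG, an antagonist of bone morphogenetic proteins, had the strongest fall with ATRA among the 74, a log2 fold change of -2.57 against untreated, with 94.7, 121 and 103 in untreated cells, a mean of 216 with DAC and 22.2, 20.0 and 10.8 with ATRA. CDKN2B, the cell cycle inhibitor p15, held 13.8, 16.4 and 22.2, 105, 190.0 and 95.6 and 7.39, 5.46 and 8.32. XCL2, a chemokine with a near-identical copy in XCL1, held 5.51, 8.19 and 4.62, 568, 542 and 645 and 2.11, 1.82 and 2.50. The Fc receptor gene FCGR2A held 373, 371 and 401, 665, 577 and 543 and 245, 239 and 231, and CST7, a cystatin of granules, 549.6, 616 and 545, 1013, 757 and 814 and 194, 192 and 139. AHNAK, a giant scaffold protein, held 8472, 8430.2 and 8990.5, 17442, 22853 and 22110.0 and 3412, 3291 and 4028; it was taken by the size of its difference in reads. JUN, FCGR2A and AHNAK kept both calls in all 18. The fall with ATRA lost its call in edgeR and DESeq2 for CD34, CSF1, CDKN2B and XCL2. That call was also lost without library 1, 3, 4 or 8 for CD34, 1, 7 or 9 for CSF1, 3 or 8 for CDKN2B and 2 for XCL2 (adjusted p up to 0.111). The rise with DAC lost its call without library 6 for NOG (adjusted p = 0.0114). For CST7 the call with DAC was lost without library 4 and in limma with TMM scaling (adjusted p up to 0.0158).

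Of the 9 that DAC lowered and ATRA raised, CD38 had the largest direct difference. ABCD2, a peroxisomal transporter of fatty acids, held 575, 624 and 661 in untreated cells, 426, 277 and 256 with DAC and 1250.3, 1136 and 1465 with ATRA (log2 fold change -2.03, SE 0.15, adjusted p = 4.01e-10). TMEM135, another peroxisome-associated protein, held 116, 106 and 122, 74.6, 52.6 and 50.8 and 263, 203 and 191, and PDP2, a pyruvate dehydrogenase phosphatase, 690.2, 687 and 652, 411, 395 and 422 and 1035, 1023 and 1049.5. In all 3 the groups were separated on either side of the untreated cells. PLEK, the platelet and leukocyte protein pleckstrin, held 19463, 21291 and 20716, 16946, 13052 and 13325 and 41969, 40015 and 35907 (log2 fold change -1.45, SE 0.10, adjusted p = 9.54e-11). The others were NR6A1, an orphan nuclear receptor, C9orf72, MINA, a ribosomal oxygenase, and LTB4R, the leukotriene B4 receptor. NR6A1 had log2 fold changes of -0.64 with DAC and 0.59 with ATRA against untreated, C9orf72 -0.57 and 0.85. MINA had -0.55 and 1.73, and LTB4R -0.40 and 1.17; the last 2 were named after their values were seen, to complete the 9. The changes with DAC in this class were small, none reaching 2-fold. Either call was lost in some fit for TMEM135 (with ATRA, without library 2 or 7), C9orf72 (with DAC, without the filter or library 2 or 6) and LTB4R (with DAC, without library 5), with adjusted p up to 0.0174.

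**Figure D3:**
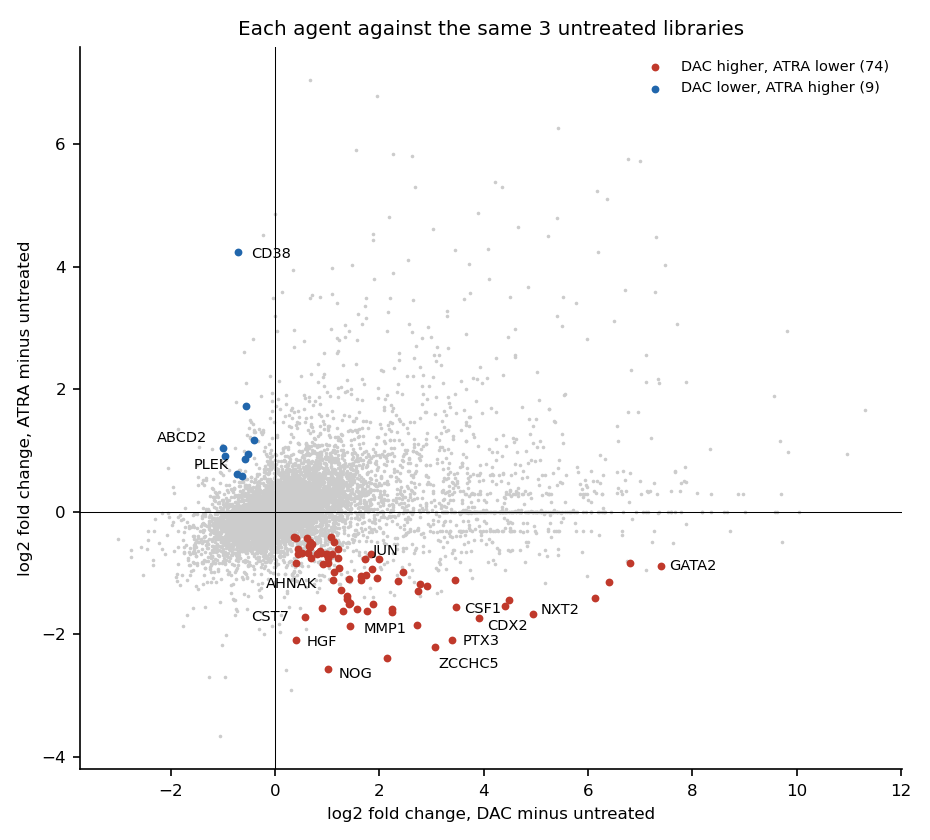
Log2 fold change of each of 9016 transcripts with DAC against untreated (horizontal) and with ATRA against untreated (vertical), both taken from the same 3 untreated libraries. The 74 transcripts raised by DAC and lowered by ATRA are in the lower right, with GATA2 farthest out at 7.40 and -0.89, and the 9 of the other kind in the upper left, with CD38 at -0.70 and 4.25.

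**Figure D4:**
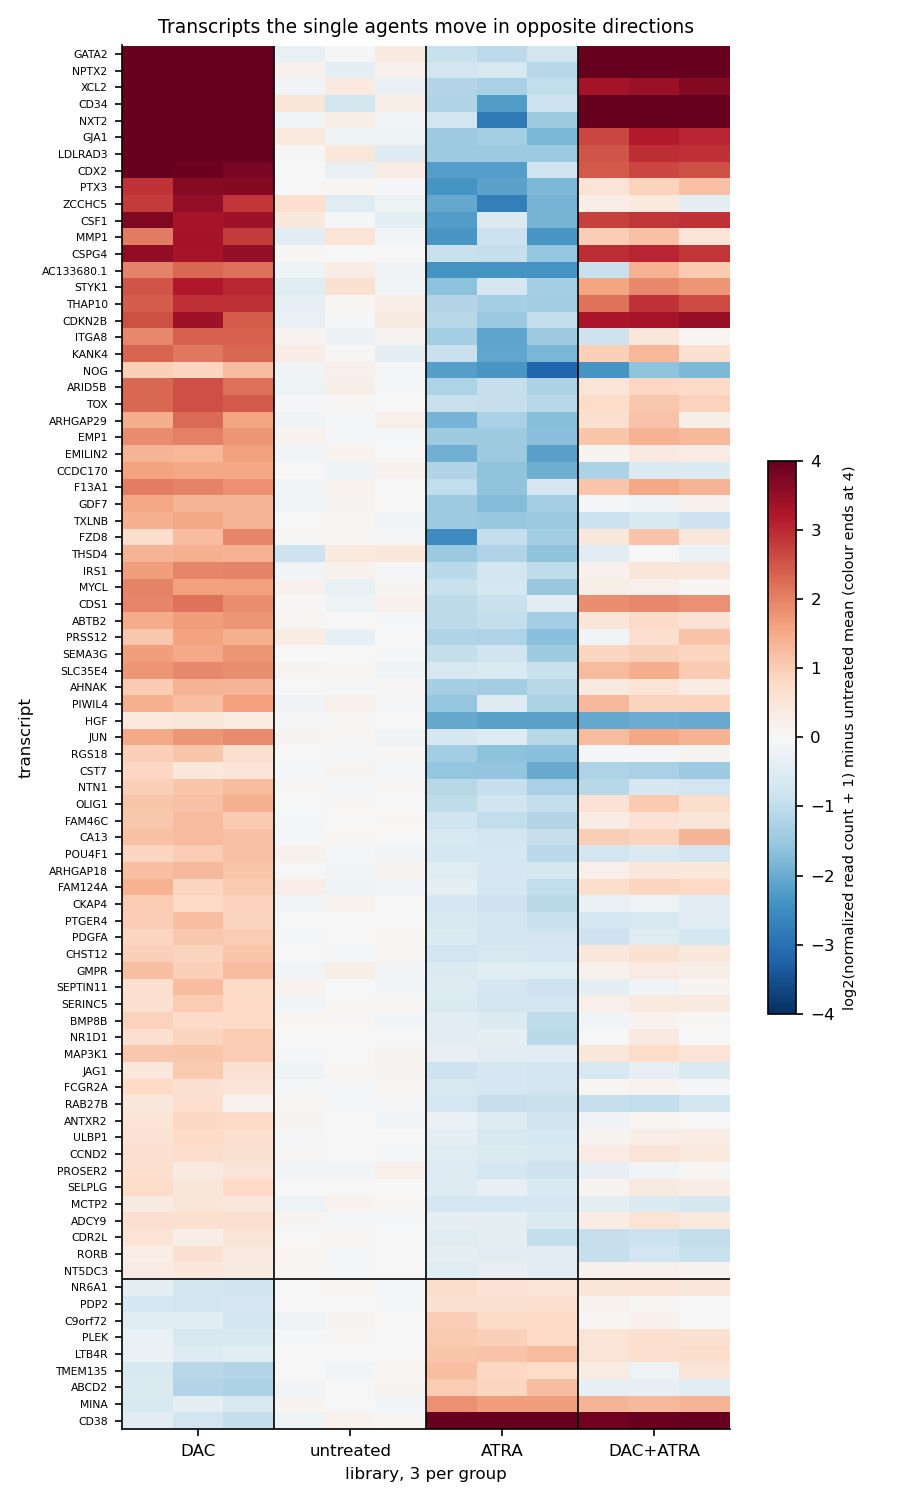
The 83 transcripts moved in opposite directions, as log2(normalized read count + 1) minus the mean of the untreated libraries, in each of the 12 libraries, with the colour scale ending at 4. The upper 74 are above untreated in all DAC and below it in all ATRA libraries, and the lower 9 are the reverse.

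In the plot of the 2 changes against untreated, 35 of the 74 lie at least 1 log2 unit from both axes, and the map by library shows the 3 libraries of each group side by side.

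Myeloid surface receptors split between the agents, with 17 of 35 tested higher with DAC, 6 higher with ATRA and a median of 0.61; under TMM scaling the counts were 14 and 9, and leaving out a library gave 3 to 5 higher with ATRA. MRC1, the macrophage mannose receptor, held 787, 1443 and 1049.8 normalized reads with DAC and 9.50, 12.7 and 8.32 with ATRA, a difference of 107-fold. SIGLEC9, an inhibitory sialic acid receptor, held 138, 133 and 142 and 7.39, 6.37 and 6.66 (log2 fold change 4.16, SE 0.30, adjusted p = 2.93e-10). Both were near their untreated levels with ATRA and clearly above them with DAC. CCR1, a chemokine receptor of monocytes, went the other way, with 1110.1, 935 and 1042 and 3511, 3298 and 2482 (log2 fold change -1.58, SE 0.13, adjusted p = 3.29e-09). ITGAX, the integrin CD11c, held 34.6, 31.2 and 34.9 and 51.7, 84.7 and 86.6 (log2 fold change -1.09, SE 0.23, adjusted p = 0.000489), both groups above an untreated mean of 6.72. The following receptors were chosen after their values were seen. ANPEP, the myeloid aminopeptidase CD13, held 196, 183 and 241 with DAC and 11.6, 14.6 and 15.8 with ATRA. TREM1, which amplifies inflammatory signals, held 32.4, 46.8 and 26.9 and 7.39, 1.82 and 1.66, and C5AR1, the receptor of complement C5a, 272, 342 and 306 and 91.9, 90.1 and 87.4. These 3 were higher in every DAC library. ITGAM, the integrin CD11b, held 874, 843 and 852 and 1054, 1036 and 917 and did not pass the threshold between the agents (adjusted p = 0.0706), although the groups did not overlap. Under the 4 other scalings or tools that called it, ITGAM was higher with ATRA, with adjusted p from 3.40e-05 to 0.00774. CCR2 held 33.5, 39.9 and 51.8 and 96.1, 85.6 and 67.4, higher with ATRA. The call of CCR2 was lost without library 4, 5, 7 or 8 (adjusted p 0.0118 to 0.0211). IL7R, a receptor of lymphoid growth signals, held 1879, 2113 and 1722 with DAC and 475, 355 and 346 with ATRA (log2 fold change 2.29, SE 0.14, adjusted p = 2.42e-11). CXCR1, a chemokine receptor of neutrophils, held 3.24, 7.79 and 5.98 and 0, 0.91 and 0, a ratio of 18.7 (95% counting interval 2.93 to 781) from 1 ATRA read.

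CD5 and CD2, receptors best known from T cells, were examined because they carried the T cell marker sum, and were chosen after their values were seen. CD5 held 719.9, 871 and 882 with DAC and 2.11, 0.91 and 0.832 with ATRA (log2 fold change 8.53, SE 0.23, adjusted p = 7.35e-17). CD2 held 292, 368 and 385 and 7.39, 4.55 and 5.83 (log2 fold change 5.67, SE 0.31, adjusted p = 6.01e-12). The DAC libraries were uniformly high and the ATRA libraries close to 0.

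Granule and secretory proteins leaned to DAC, with 10 of 15 tested higher with DAC, none with ATRA and a median of 1.24 (8 and 1 under TMM scaling, 8 and 2 with DESeq2). MMP9, the gelatinase of neutrophils and macrophages, held 1278, 1409 and 1497 with DAC and 23.2, 23.7 and 10.8 with ATRA (log2 fold change 6.18, SE 0.24, adjusted p = 3.7e-13). LYZ, coding for lysozyme, held 641, 941 and 835 and 181, 214 and 142 (log2 fold change 2.17, SE 0.15, adjusted p = 2.51e-10), and the ATRA libraries were close to the untreated mean of 164. CAMP, the cathelicidin precursor, held 149, 151 and 170.3 and 16.9, 11.8 and 6.66 (log2 fold change 3.71, SE 0.24, adjusted p = 5.41e-11). These 3 genes separated the groups completely. S100A4 and S100A11, calcium-binding proteins, were among the smallest called differences, and each lost its call under TMM scaling and with DESeq2. The call of S100A4 was also lost without library 4, 5, 6, 7 or 9 (adjusted p up to 0.0419) and that of S100A11 without library 1, 2, 3, 6, 7 or 9 (adjusted p up to 0.0928). MPO, the myeloperoxidase of granules, held 32489, 20141 and 27361 with DAC and 35327, 37516 and 26256 with ATRA (adjusted p = 0.0855), the groups overlapping and both below an untreated mean of 52120.0. DESeq2 called MPO higher with ATRA (log2 fold change -0.45, adjusted p = 0.00236). S100A9, a subunit of calprotectin, held 929, 1183 and 1156 and 1116, 1021 and 784 (adjusted p = 0.309), both far above an untreated mean of 80.1. MPO and S100A9 were chosen after their values were seen. ELANE and CTSG had too few reads to be tested.

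The 4 tested subunits of the phagocyte NADPH oxidase gave 1 gene on each side and a median of 0.26, with 2 higher with DAC under library-size scaling and none higher with ATRA in DESeq2. CYBB, the catalytic subunit, held 3502, 2744 and 2732 with DAC and 694, 642 and 628 with ATRA (log2 fold change 2.18, SE 0.11, adjusted p = 1.02e-12). NCF1, a cytosolic subunit with near-identical pseudogenes, held 2.16, 1.95 and 1.99 and 8.45, 6.37 and 10.8 (log2 fold change -1.63, SE 0.35, adjusted p = 0.000803), a call that DESeq2 did not make (adjusted p up to 0.0304 over the settings that lost it). CYBB was thus high in every DAC library, and NCF1 differed at no more than 10.8 normalized reads.

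Complement and coagulation genes had 5 of 8 tested higher with DAC and 1 with ATRA, with a median of 1.21. THBD, thrombomodulin, was the exception, with 957, 1308 and 1234 with DAC and 10714, 11454 and 9389 with ATRA, 9.02-fold more (log2 fold change -3.18, SE 0.16, adjusted p = 1.58e-11). F13A1, the A subunit of coagulation factor XIII, held 125, 121 and 109.6 and 14.8, 9.10 and 18.3 (log2 fold change 3.04, SE 0.23, adjusted p = 4.97e-10), and C3, the central complement protein, 105, 106 and 117 and 35.9, 30.9 and 22.5 (log2 fold change 1.86, SE 0.19, adjusted p = 8.85e-08). With both agents THBD reached 20899, 25738 and 22830.0, above either agent alone. Lysosomal and cathepsin genes had 5 of 13 tested higher with DAC, none with ATRA and a median of 0.50 (4 higher with DAC under TMM scaling and with DESeq2). ATP6V0D2, a subunit of the proton pump, held 62.7, 43.8 and 45.8 with DAC and 4.22, 8.19 and 2.50 with ATRA (log2 fold change 3.21, SE 0.32, adjusted p = 4.58e-08). CTSK, a cysteine protease of osteoclasts, held 20.5, 16.6 and 18.9 and 4.22, 1.82 and 2.50, and CTSB, cathepsin B, 1366, 1338 and 1235 and 1003, 943 and 843 (log2 fold change 0.50, SE 0.10, adjusted p = 0.000307). The first 2 had few reads and were widely separated, the last had many and was separated by less than 2-fold. LAMP2, another of the 5 called, lost its call under TMM scaling and with DESeq2. That call was also lost without library 1, 2, 3, 4, 5, 8 or 9. Over the settings that lost it, adjusted p reached 0.0539.

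Of 27 tested myeloid transcription factors, 8 were higher with DAC and 4 with ATRA, with a median of 0.23 near that of all symbols; under TMM scaling the counts were 7 and 7, and leaving out a library gave 2 to 4 higher with ATRA. CEBPD, a C/EBP factor of late myeloid differentiation, had at most 1 read in any library without DAC, with 464, 411 and 648 with DAC, 0, 0 and 0.832 with ATRA and 0 in untreated cells. Its ratio of DAC over ATRA was 1650.1 (95% counting interval 296 to 65218), resting on 1 ATRA read. KLF2, a Krüppel-like factor of quiescence, held 81.1, 122 and 215 and 10.6, 18.2 and 6.66 (log2 fold change 3.44, SE 0.32, adjusted p = 4.27e-08). CEBPB, a C/EBP factor of macrophages, was higher with ATRA, with 1298, 992 and 1469 and 2789.9, 3438 and 1720.3 (log2 fold change -1.04, SE 0.19, adjusted p = 0.000305). TFEC, a factor of the macrophage lineage, held 2.16, 6.82 and 0 and 20.1, 15.5 and 6.66, overlapped between the groups, and lost its call without library 4, 6, 7 or 8 (adjusted p up to 0.0304). CEBPA and CEBPE, chosen after their values were seen, did not pass the threshold. CEBPA held 16126, 12328 and 16399 with DAC and 14125, 14734 and 8930.5 with ATRA (adjusted p = 0.189), and CEBPE 1513, 1297 and 1682 and 1329.5, 1333 and 951 (adjusted p = 0.056). CEBPE was above its untreated mean of 256 in all libraries of both agents.

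**Figure D5:**
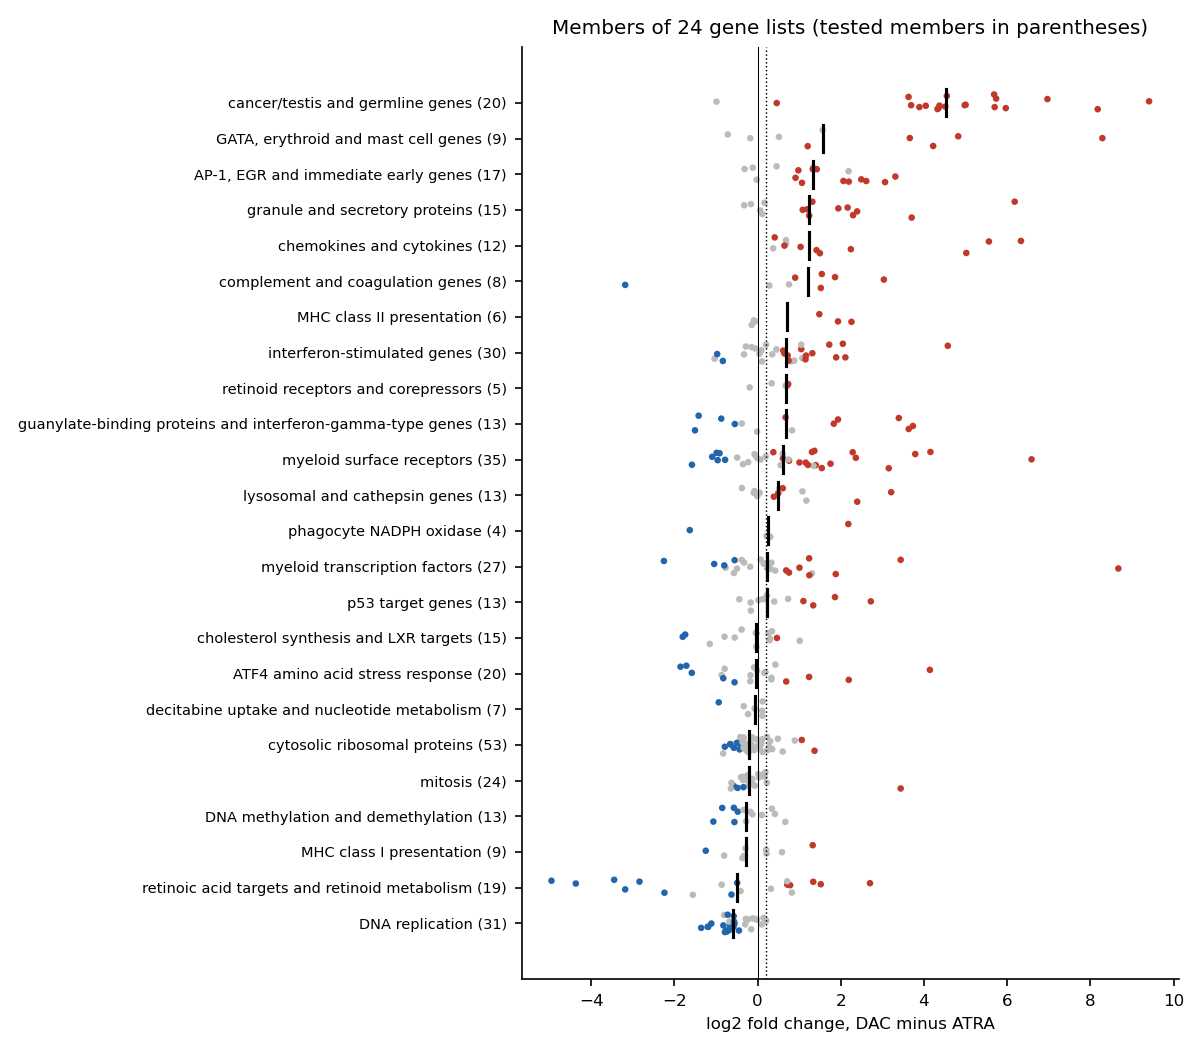
Log2 fold change DAC minus ATRA of the tested members of 24 gene lists, each dot a symbol, red or blue where it passed the threshold (higher with DAC or with ATRA), with a black bar at the list median and a dotted line at the median of all 7622 symbols, 0.19. The medians run from 4.53 for cancer/testis and germline genes to -0.58 for DNA replication.

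The plot of the lists shows that most lists held members on both sides, while lists such as chemokines, granule proteins, AP-1 factors and cancer/testis genes had their called members on the DAC side with the deposited size factors.

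Interferon-stimulated genes had 13 of 30 tested higher with DAC and 2 with ATRA, with a median of 0.69 (13 and 3 under TMM scaling, and 1 to 2 with ATRA when a library was left out). Against untreated cells, 24 of the 30 were higher with DAC and 14 with ATRA, and 0 were lower with either. Over all symbols 33.4% and 7.12% were higher. The list's median log2 fold change against untreated was 1.22 with DAC and 0.62 with ATRA. IFI44L, an antiviral gene induced by type I interferon, held 45.4, 46.8 and 44.8 normalized reads with DAC and 0, 1.82 and 1.66 with ATRA (log2 fold change 4.57, SE 0.43, adjusted p = 2.17e-08). IFIT1, an RNA-binding antiviral protein, held 4.32, 6.82 and 2.99 and 1.06, 0 and 0, a ratio of 15.4 (95% counting interval 2.34 to 650.3) from 1 ATRA read, and DESeq2 did not call it (adjusted p = 0.0196). IFI44L was uniformly raised in the DAC libraries, and IFIT1 was near the limit of detection. The genes with the largest shift to ATRA were UBE2L6, the conjugating enzyme of ISG15, and TRIM22, an antiviral ubiquitin ligase. UBE2L6 held 54.0, 52.6 and 77.7 and 120.4, 171 and 82.4 (log2 fold change -0.97, SE 0.22, adjusted p = 0.00142), a call lost without library 4 or 8 (adjusted p 0.0102 to 0.0135). TRIM22 held 505, 367 and 399 and 793, 734 and 722 (log2 fold change -0.83, SE 0.12, adjusted p = 6.12e-06). Among those chosen after their values were seen, OAS1 held 142, 155 and 144 and 68.6, 69.2 and 57.4, OAS2 195, 164 and 174 and 65.5, 72.8 and 73.2, and IFIT5 964, 1027 and 861 and 256, 226 and 206. These oligoadenylate synthetases and the IFIT5 protein sense foreign RNA, and all 3 were higher in every DAC library, by 2.26-, 2.52- and 4.15-fold. Of the cytosolic RNA sensors, IFIH1 held 336, 308 and 283 and 193, 189 and 168 (log2 fold change 0.75, SE 0.13, adjusted p = 5.46e-05), and DDX58 16.2, 20.5 and 27.9 and 4.22, 7.28 and 5.83 (log2 fold change 1.73, SE 0.34, adjusted p = 0.000263). MAVS, their adaptor, held 38.9, 29.2 and 42.8 and 22.2, 31.9 and 23.3 and did not pass the threshold (adjusted p = 0.101), its groups overlapping. Only 175 of the 11731 bases of this MAVS transcript and 135 of 4628 of the DDX58 transcript belong to no other annotated transcript. What share of their levels came from those bases was not tested.

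The promoters of IFI44L and ERAP2 are shown as examples of interferon-type genes that were higher with DAC and with ATRA. Capitals mark matches to TTTC, any 2 bases and TTTC again, the core of an interferon-stimulated response element (ISRE), or to its reverse complement. IFI44L at chr1:78620198-78620447 on the plus strand has 2 and ERAP2 at chr5:96876250-96876499 on the plus strand has 1.
IFI44L: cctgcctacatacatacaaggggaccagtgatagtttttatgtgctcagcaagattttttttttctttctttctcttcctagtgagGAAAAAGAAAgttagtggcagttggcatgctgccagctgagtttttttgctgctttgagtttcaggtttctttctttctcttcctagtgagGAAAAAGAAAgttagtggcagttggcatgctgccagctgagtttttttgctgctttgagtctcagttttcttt
ERAP2: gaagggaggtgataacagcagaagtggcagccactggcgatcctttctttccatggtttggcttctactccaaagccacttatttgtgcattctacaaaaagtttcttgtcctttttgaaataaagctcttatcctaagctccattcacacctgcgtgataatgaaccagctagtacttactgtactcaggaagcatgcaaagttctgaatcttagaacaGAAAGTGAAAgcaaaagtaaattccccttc
These letters occurred in 182 of the 6169 windows (2.95%). Promoters could be read for 1640 of 2138 symbols higher with DAC (76.7%) and for 453 of 572 higher with ATRA (79.2%). Because the rest are missing, CpG or motif shares are not compared between the 2 sides here.

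Guanylate-binding proteins and genes of the interferon-gamma type had 6 of 13 tested higher with DAC and 4 higher with ATRA, with a median of 0.67. CXCL9, a chemokine induced by interferon-gamma, held 17.3, 18.5 and 23.9 with DAC and 1.06, 0 and 0.832 with ATRA, a ratio of 32.4 (95% counting interval 8.58 to 274) from 2 ATRA reads. SOCS1, a brake on cytokine signalling, held 125, 153 and 183 and 14.8, 16.4 and 5.83 (log2 fold change 3.63, SE 0.57, adjusted p = 0.00014). CXCL11, another ligand of CXCR3 and chosen after its values were seen, held 38.9, 39.0 and 21.9 and 3.17, 1.82 and 1.66. All 3 were higher in every DAC library, although SOCS1 lost its call with a pseudocount of 0.1 (adjusted p = 0.046). IRF1, a transcription factor of the interferon response, was higher with ATRA, with 111, 132 and 132 and 389, 337 and 287, 2.69-fold more (log2 fold change -1.41, SE 0.14, adjusted p = 3.29e-08). GBP4, a guanylate-binding protein, held 2.16, 2.92 and 3.98 and 8.45, 13.7 and 9.16 (log2 fold change -1.50, SE 0.43, adjusted p = 0.00747), a call lost without library 4, 5, 7, 8 or 9, with adjusted p up to 0.145 over the settings that lost it. With both agents GBP4 reached 174, 179 and 235, far above either agent alone.

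In antigen presentation by MHC class II, 3 of 6 tested genes were higher with DAC and none with ATRA, with a median of 0.72 (3 and 1 in edgeR with TMM). CIITA, the transactivator of the class, held 22.7, 21.4 and 24.9 with DAC and 4.22, 4.55 and 7.49 with ATRA (log2 fold change 1.94, SE 0.31, adjusted p = 2.61e-05). HLA-DRB1 held 424, 521 and 507 and 115, 107 and 80.7 (log2 fold change 2.26, SE 0.14, adjusted p = 2.92e-11), and HLA-DRB5 387, 463 and 467 and 174, 163 and 132 (log2 fold change 1.49, SE 0.13, adjusted p = 1.01e-08). These 2 chains are close copies and polymorphic, so their split is uncertain, but the groups were fully apart in each. In MHC class I presentation, 1 of 9 tested was higher on each side, with a median of -0.29, and TMM scaling gave 2 higher with ATRA. TAP1, the peptide transporter, held 91.9, 76.0 and 97.6 and 34.8, 38.2 and 30.8 (log2 fold change 1.33, SE 0.18, adjusted p = 3.51e-06), and ERAP2, which trims peptides, 136, 118 and 112 and 285, 289 and 292 (log2 fold change -1.24, SE 0.13, adjusted p = 8.09e-08).

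Of 44 chemokines and cytokines 12 were tested, and 9 of these were higher with DAC and none with ATRA, with a median of 1.23. In 2 of the 12 the ATRA group had at most 3 reads, so they passed the filter on low values only through other libraries. The share and the median are thus in part set by the filter and do not describe the untested members. CCL1, a chemokine that attracts monocytes, held 668, 689.7 and 711 with DAC and 15.8, 12.7 and 12.5 with ATRA (log2 fold change 5.56, SE 0.17, adjusted p = 4.52e-16). LIF, a cytokine of the interleukin 6 family, held 74.6, 77.9 and 86.7 with DAC and 0 with ATRA, at least 86.4-fold. Both were at 0 or low in untreated cells, with means of 10.1 and 0, and rose with DAC. IL16 and TGFB1 had the smallest called differences. IL16 held 1092, 1078 and 1047 and 882, 848 and 696 (log2 fold change 0.41, SE 0.10, adjusted p = 0.00247), and TGFB1 7185, 6315 and 8381 and 4822, 6256 and 3278 (log2 fold change 0.65, SE 0.18, adjusted p = 0.00678). Neither call held under TMM scaling, and that of TGFB1 was lost without untreated library 1 or without library 4, 6, 7 or 9, with adjusted p up to 0.0832. OSM, a related cytokine, and IL1A, an alarmin, were chosen after their values were seen. OSM held 154, 159.8 and 172 and 64.4, 70.1 and 40.0, and IL1A 54.0, 59.4 and 59.8 and 16.9, 14.6 and 5.83, with every DAC library above every ATRA library. HGF, the hepatocyte growth factor, held 1066, 1142 and 815 with DAC, 313, 270.4 and 273 with ATRA and a mean of 1037 in untreated cells. With ATRA it fell by 1.86 on the log2 scale against untreated, while the difference of this transcript with DAC did not pass the threshold. Another HGF transcript, at 545, 572 and 525 with DAC, 100, 93.8 and 94.0 with ATRA and a mean of 414 in untreated cells, was 1 of the 74 moved in opposite directions, with a rise with DAC that lost its call in 11 of 18 settings (adjusted p up to 0.122). HGF too was chosen after its values were seen.

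AP-1, EGR and immediate early genes were higher with DAC in 11 of 17 tested and with ATRA in none, with a median of 1.34. DUSP5 and DUSP1 are phosphatases that switch off MAP kinases. DUSP5 held 1009.6, 1584 and 1329 with DAC and 168, 133 and 94.9 with ATRA (log2 fold change 3.31, SE 0.19, adjusted p = 1.07e-10), and DUSP1 282, 445 and 377 and 48.6, 43.7 and 35.8 (log2 fold change 3.07, SE 0.18, adjusted p = 1.49e-11). JUN differed by log2 fold change 2.49, SE 0.13, adjusted p = 3.2e-12. The other JUN family members JUNB and JUND were higher by about the same small amount, with 4489, 4371 and 5432 against 2698, 3000.3 and 1708 for JUNB and 3589, 2993 and 4444 against 1934, 2594 and 1422 for JUND (log2 fold changes 0.98 and 0.91), though JUND lost its call without the filter on low values (adjusted p = 0.0123). EGR1, a zinc finger factor of the immediate early response chosen after its values were seen, held 999.9, 1881 and 1927 and 409.7, 258 and 148 (log2 fold change 2.61, SE 0.50, adjusted p = 0.0016). Every DAC library was above every ATRA library in all 6 of these genes, but the call of EGR1 was lost without library 8 or 9 (adjusted p 0.011 and 0.0136).

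DNA replication genes formed the list with the lowest median. Of 31 tested, 18 were higher with ATRA and none with DAC, with a median of -0.58, and 22 were higher with ATRA under TMM scaling. Against untreated cells, 18 were lower with DAC (8.83% over all symbols), and the list's median log2 fold change was -0.60 with DAC and -0.03 with ATRA. MCM3, a subunit of the replicative helicase, held 11.9, 5.85 and 5.98 normalized reads with DAC and 16.9, 21.8 and 24.1 with ATRA (log2 fold change -1.35, SE 0.33, adjusted p = 0.00201), a transcript with few reads whose call was lost without library 5, 6 or 9 (adjusted p 0.0113 to 0.012). RPA3, a subunit of the single-strand binding complex, held 35.7, 44.8 and 18.9 and 87.6, 73.7 and 59.9 (log2 fold change -1.20, SE 0.25, adjusted p = 0.000447). E2F1, the factor that drives S-phase genes, held 2719.7, 2132 and 2481 and 3664, 3827 and 3238 (log2 fold change -0.55, SE 0.10, adjusted p = 0.000141). MCM2, at 1208, 918 and 1051 and 1558, 1638 and 1154, overlapped between the groups and lost its call without library 1, 2, 3, 5, 6, 7 or 8 (adjusted p up to 0.0595). GINS2 and MCM6, subunits of the same helicase complex, were chosen after their values were seen. GINS2 held 2136, 1458 and 1668 and 2983, 2898 and 2382, and MCM6 5757, 4499 and 4858 and 8217, 7656 and 6658, with no overlap and untreated means of 3178 and 8578. Library 5 was the lowest DAC library in both, and library 9 the lowest ATRA library.

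Mitosis genes differed less, with 1 of 24 tested higher with DAC, 3 higher with ATRA and a median of -0.22; under TMM scaling 8 were higher with ATRA, and leaving out a library gave 1 to 3. MAD2L1, a spindle checkpoint protein, held 593, 456 and 482 with DAC and 892, 677 and 709.9 with ATRA (log2 fold change -0.57, SE 0.13, adjusted p = 0.000981). CDC25B, a phosphatase that activates cyclin-dependent kinases, held 15.1, 19.5 and 24.9 and 0, 0.91 and 2.50 (log2 fold change 3.44, SE 0.43, adjusted p = 1.03e-06). BUB3, a checkpoint protein, passed narrowly and lost its call without library 1, 2, 3, 4, 6 or 7 (adjusted p up to 0.0709), and KIF11, a spindle motor, without library 2, 4, 5, 6, 7 or 8 (adjusted p up to 0.0369). Of 13 tested p53 target genes, 4 were higher with DAC and none with ATRA, with a median of 0.22. BTG2, an antiproliferative gene, held 1238, 1422 and 1283 and 386, 355 and 340.4 (log2 fold change 1.86, SE 0.11, adjusted p = 1.13e-11). TNFRSF10B, a death receptor, held 15.1, 10.7 and 14.9 and 1.06, 0.91 and 1.66, ZMAT3 214, 319.5 and 236 and 113, 84.7 and 102, and SESN1 275, 279 and 343 and 176, 165 and 89.9. All 4 separated the groups without overlap.

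Enzymes of DNA methylation and demethylation were higher with ATRA in 5 of 13 tested and with DAC in none, with a median of -0.27 (8 under TMM scaling). DNMT3A, a de novo methyltransferase, held 1399, 1166 and 1273 with DAC and 2640.0, 2717 and 2633 with ATRA (log2 fold change -1.06, SE 0.09, adjusted p = 4.62e-09), against an untreated mean of 1025. HELLS, a chromatin remodeller needed for methylation, held 488, 419.9 and 419 and 788, 807 and 789 (log2 fold change -0.85, SE 0.11, adjusted p = 1.52e-06), against 844 in untreated cells. DNMT3A was thus highest with ATRA, while HELLS was lowest with DAC. MBD4, a DNA glycosylase, held 123, 118 and 105 and 169, 163 and 176, and TET3, a 5-methylcytosine dioxygenase, 2599, 2698 and 2593 and 3962, 3578 and 3437. The call of MBD4 was lost without library 6, with adjusted p up to 0.0174 over the settings that lost it. In the list of decitabine uptake and nucleotide metabolism, 1 of 7 tested was higher with ATRA and none with DAC, with a median of -0.07. That gene was UMPS, which makes uridine monophosphate, with 277, 242 and 306 with DAC and 546, 539 and 485 with ATRA (log2 fold change -0.93, SE 0.11, adjusted p = 6.06e-07).

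In the amino acid stress response driven by ATF4, 4 of 20 tested were higher with DAC and 5 with ATRA, with a median of -0.05. Higher with ATRA were 9 in edgeR with TMM, 8 in DESeq2 and 3 to 6 when a library was left out. STC2, a secreted glycoprotein, held 411, 517 and 479 with DAC and 33.8, 25.5 and 19.1 with ATRA (log2 fold change 4.14, SE 0.21, adjusted p = 1.64e-12), and ATF5 996, 894 and 1049 and 245, 277 and 142 (log2 fold change 2.19, SE 0.17, adjusted p = 3.92e-09). DDIT4, an inhibitor of mTORC1, held 2154, 1842 and 1876 and 7795, 7916 and 5672 (log2 fold change -1.85, SE 0.11, adjusted p = 2.03e-11), and SLC6A9, a glycine transporter, 32.4, 20.5 and 18.9 and 92.9, 86.5 and 59.9 (log2 fold change -1.71, SE 0.23, adjusted p = 4.07e-06). The list thus held genes at both ends, and its members did not move as a group. AARS, alanyl-tRNA synthetase, chosen after its values were seen, held 2413, 1674 and 1888 and 3765, 3559 and 3150.2 with 3900.1 in untreated cells. Of 15 tested genes of cholesterol synthesis and LXR targets, 1 was higher with DAC and 2 with ATRA, with a median of -0.03 (0 and 3 under TMM scaling, 2 and 3 with DESeq2). SREBF1, the factor of lipid synthesis, held 36.8, 17.5 and 33.9 and 83.4, 96.5 and 109 (log2 fold change -1.74, SE 0.24, adjusted p = 5.45e-06). SQLE, squalene epoxidase, held 2559, 1905 and 2138 and 1701, 1799 and 1285 (log2 fold change 0.47, SE 0.12, adjusted p = 0.00431), a call lost under TMM scaling and without library 4, 6 or 9 (adjusted p 0.0108 to 0.0383). ABCA1, the cholesterol exporter, was chosen after its values were seen, with 735, 367 and 534 and 290.4, 223 and 269 against 1.84, 3.64 and 7.39 in untreated cells. It did not pass the threshold between the agents (adjusted p = 0.0223), though the groups did not overlap. It passed with DESeq2, in edgeR with the deposited size factors, in the 6 libraries alone and without library 1, 3 or 5 (lowest adjusted p 0.00123). Cytosolic ribosomal proteins had 2 of 53 tested higher with DAC and 6 with ATRA, with a median of -0.21, and 0 and 16 under TMM scaling. RPS6 held 131, 94.5 and 126 with DAC and 191, 244 and 172 with ATRA, and RPS29 232, 198 and 197 and 299.9, 319.5 and 372. RPL30 was higher with DAC, at 12.97, 20.5 and 13.9 against 6.34, 9.10 and 2.50, and lost its call under TMM scaling and without library 4, 5, 6, 7 or 9 (adjusted p up to 0.053).

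By difference in reads, the genes that gained most with DAC over ATRA were MT-CYB, CPXM1, AHNAK, SLC38A1 and PIM1. CPXM1, a member of the carboxypeptidase family, held 28333, 21972 and 26599 with DAC and 4348, 4617 and 3682 with ATRA (log2 fold change 2.60, SE 0.10, adjusted p = 2.7e-14). PIM1, a serine/threonine kinase, held 15088, 13799 and 16417 and 4809, 5252 and 3494 (log2 fold change 1.76, SE 0.12, adjusted p = 1.12e-10), and SLC38A1, a glutamine transporter, 26693, 30385 and 26493 and 18643, 16646 and 14901 (log2 fold change 0.74, SE 0.10, adjusted p = 2.89e-06). These 3 differed between the groups without overlap. The mitochondrial MT-CYB held 156770.0, 155000.0 and 142700.0 and 120970.0, 117650.0 and 90140.0 (log2 fold change 0.48, SE 0.10, adjusted p = 0.00055), a call lost without the filter on low values (adjusted p = 0.0166). Those that gained most with ATRA over DAC were SCD, CD93, TMSB10, PLEK and SLC2A5. SCD, the stearoyl-CoA desaturase, held 39930.0, 14615 and 20982 and 83973, 80170.0 and 76359 (log2 fold change -1.80, SE 0.24, adjusted p = 3.71e-05), the DAC libraries being spread widely and all below the ATRA libraries. CD93, a receptor of myeloid cells, held 43495, 41287 and 43665 and 96901, 91405 and 84885 (log2 fold change -1.09, SE 0.09, adjusted p = 1.58e-09), and TMSB10, an actin-binding thymosin, 67559, 61531 and 65929 and 99133, 101290.0 and 78692 (log2 fold change -0.51, SE 0.09, adjusted p = 0.000154). With SLC2A5 and PLEK, described above, these genes were high in all libraries and differed by 1.43- to 5.57-fold.

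Values are per annotated transcript, and of the 167 named transcripts found in GENCODE, 24 have fewer than 200 bases that no other transcript covers. Those of RARA, ANPEP, CTSK, CDC25B, TNFRSF10B and IL16 have 0 such bases. How far their values hold for the whole gene was not tested. The strand setting of the read counting is not given in the sources used here, so reads of antisense or overlapping genes could not be told apart.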

How the data were processed

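The sources name FastQC, STAR, HTSeq and DESeq2 without versions and the genome build hg38 with UCSC transcripts. The deposited signal is a read count per transcript divided by the library's DESeq2 size factor, as the authors made it; all 12 sample columns were used and 0 were left unmapped. Whole reads were recovered from it: in each library 100% of values were whole multiples of 1 read, within 0.01 read. Transcripts (197782) were given a type from GENCODE 44, 174768 of them by identifier and the rest by symbol. Protein-coding transcripts with at least 10 normalized reads in at least 3 libraries were tested on log2(normalized reads + 1) with limma 3.58.1 (trend and robust options) in R 4.3.3, 1 fit over 12 libraries without covariates, with Benjamini-Hochberg adjustment over the 9016 tested and a threshold of 0.01. A pseudocount of 1 shrinks the fold changes of low transcripts. Single values per library were compared by two-sided exact permutation in scipy 1.17.1. Intervals and floors of 3 reads cover counting error only. The scripts were tested on simulated data.

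Alternatives were edgeR 4.0.16 with TMM scaling and DESeq2 1.42.0 on the recovered reads, library-size scaling, no and stricter filters, a pseudocount of 0.1, sums by symbol, the 6 libraries alone, all transcript types and each of libraries 1 to 9 left out. Chosen after seeing the data were edgeR with the deposited size factors, which called 2310 transcripts higher with DAC and 684 higher with ATRA, limma on TMM-scaled reads, the runs over all transcript types against untreated, and each library left out for library composition.

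Members and lists were chosen with earlier results of these data known. Named transcripts (170) were, 1 per symbol, (a) the 10 largest and 10 smallest non-overlapping called log2 fold changes with a mean CPM of at least 1, (b) the 5 largest called differences in normalized reads each way, (c) the 6 opposite-direction transcripts each way with the largest smaller change against untreated, (d) the 2 largest and 2 smallest called members of each list and (e) genes the study measured. Of the 170, 40 were outside these rules and named after their values were seen. Some items among the list members and markers are not reported here. Promoters came from RefSeq (GRCh38.p14), for 6169 of 7622 symbols. Figures were drawn with matplotlib 3.10.9 from tables made with numpy 2.4.6 and pandas 2.3.3 in Python 3.11.15.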

Additional observations from a re-analysis of the deposited data

Results flagged for a closer look

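Outside the protein-coding set, 10357 transcripts passed the same filter, and 1194 of them were higher with DAC than with ATRA while 1086 were higher with ATRA (limma, adjusted p below 0.01). They stand here because the comparisons above do not use them. Their median log2 fold change was -0.13.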

How the results depend on the processing

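Calls higher with ATRA, calls lower than untreated and opposite-direction counts moved with the setting. Transcripts higher with ATRA than with DAC numbered 1281 with edgeR and TMM, 1159 with DESeq2, 1246 with limma and TMM, 447 in the 6 libraries alone, 1752 over all transcript types, 1030 at an adjusted p below 0.05 and 266 at 2-fold; those higher with DAC numbered 3486 over all types and 1512 at 2-fold. For DAC versus untreated, lower transcripts numbered 1604 (edgeR, TMM), 1397 (DESeq2), 1300 (library size), 2189 (all types), 1574 (limma, TMM) and 1249 (below 0.05), and higher 4296 (all types). For ATRA versus untreated, lower transcripts numbered 389, 383, 456, 362, 386 and 469 in that order, and higher 989 (all types). Raised by ATRA and lowered by DAC were 37, 36, 24, 24, 36 and 25 in that order; raised by DAC and lowered by ATRA were 139 at the looser threshold. Leaving out each of libraries 1 to 9 in turn gave 137 to 232 transcripts lower with ATRA than untreated for the untreated and ATRA libraries and 225 to 242 for the DAC libraries, 46 to 78 raised by DAC and lowered by ATRA, and 7 to 14 of the reverse. The cause was not tested, except that fewer libraries or more transcripts enter some settings by construction. The setting with all types against untreated and limma with TMM were chosen after seeing the data. Of 170 such values 134 stayed within 1.5 times the value given above, and 36 did not.

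No called transcript of DAC against ATRA changed sign in any setting compared; edgeR with TMM kept 2617 of the 2963 calls, DESeq2 2573 and the 6 libraries alone 2208. Of the 170 named transcripts, 141 kept direction and call in every fit that tested them, at an adjusted p below 0.01, and 20 changed call without 1 library. Requiring 2-fold as well ended the call of 34. The stricter filter tested only 147 of the 170 and the 6 libraries alone 162, of which 12 lost their call. S100A9, not called, turned to -0.0045 on the log2 scale under limma with TMM. Without library 9, ATRA was called higher than untreated for 805 transcripts in place of 583, and the median of DAC against ATRA was 0.10. No paired analysis was possible because the columns carry no replicate number that matches the labels. In library composition no value moved. A difference in transcripts with few reads was not detectable at this depth below the floors given.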

Other observations

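Long non-coding transcripts changed on both sides. Of 2961 tested, 632 (21.3%) were higher with DAC and 370 (12.5%) with ATRA, beside 18.0% and 9.04% of all transcript types in the same fit. MEG3, an imprinted RNA, held 139, 206 and 208 normalized reads with DAC and 0 in all ATRA and untreated libraries. RP11-206M11.7 held 895, 1519 and 1268 with DAC and 0, 0 and 0.832 with ATRA, and LINC01413 445, 469 and 526 against 2.11, 0.910 and 0. In each of the 3 the DAC libraries stood far above the ATRA libraries. RP5-1198O20.4 went the other way, with 293.6, 284 and 310.4 with ATRA and 0, 2.92 and 4.98 with DAC, and RP11-410D17.2 held 71.8, 60.1 and 52.4 with ATRA and 0, 0 and 0.996 with DAC. These 5 were chosen after their values were seen.

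By chromosome, the share of tested symbols higher with DAC was largest on chromosome 22 (34.1%) and on chromosome X (88 of 261, 33.7%, against 10 higher with ATRA) and smallest on chromosome 21 (15.8%) and chromosome 16 (19.5%). Over all symbols the shares were 28.1% higher with DAC and 7.5% higher with ATRA. Chromosome 13 came close behind at 33.1%, and the differences between chromosomes were not tested.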
